A study of Mus musculus with 6 samples.

Results

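ADAM and ADAMTS proteases are metalloproteases that cut proteins at the cell surface or in the extracellular matrix. The 10 genes described here, Adam8, Adam9, Adam10, Adam12, Adam15, Adam17, Adam19, Adamts1, Adamts4 and Adamts5, were chosen by name. All 10 were reached by probes of the array, among 22910 genes in all, and 7 of them were bright enough on the arrays to be tested, among 14345 genes tested. The signals came from 2D-MAOs, which are mouse airway epithelial organoids grown from lung airway cells of C57BL/6 mice and then plated as a flat layer. RNA of 3 TGF-β1-treated cultures and of 3 control cultures was measured on 6 Agilent arrays with a single dye. Both groups were kept from day 3 in medium lacking noggin, an inhibitor of BMP ligands, and A83-01, an inhibitor of the TGF-β receptor kinase, and were collected on day 7. The groups therefore differed by TGF-β1 itself, for which the array methods name no concentration. The ages and the number of the mice behind the cultures are not given in the sources used here, so that p-values measure the spread between these cultures, which the study describes as biological replicates.

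An ADAM is made as an inactive precursor and is anchored in the membrane. Furin and related convertases remove its prodomain, and the mature enzyme releases the outer part of neighbouring membrane proteins, a step called shedding. ADAM17 is known for releasing TNF and EGF receptor ligands, and ADAM10 for cutting Notch receptors and cadherins. ADAMTS proteases lack the membrane anchor, carry thrombospondin repeats and act on matrix proteins such as versican and aggrecan. TGF-β is known to raise the transcription of many matrix genes through SMAD proteins, and ADAM12 has been described as an ADAM of fibrotic and mesenchymal tissue.

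The 250 bases before the transcription start are shown for 4 genes that stand for the patterns described below. Adam8, Adam10 and Adam15 were brighter than every control array on both TGF-β1 replicates 1 and 2 but not on replicate 3. Adamts1 was the only tested gene of the 10 that was brighter than every control array on all 3 TGF-β1 arrays. The sequences are those of RefSeq on assembly GRCm38.p6, written 5′ to 3′ on the strand of the gene. Capitals mark CAGAC or its reverse complement GTCTG, the core letters of a SMAD-binding element.
Adam8 (chr7:139992563-139992812, minus strand): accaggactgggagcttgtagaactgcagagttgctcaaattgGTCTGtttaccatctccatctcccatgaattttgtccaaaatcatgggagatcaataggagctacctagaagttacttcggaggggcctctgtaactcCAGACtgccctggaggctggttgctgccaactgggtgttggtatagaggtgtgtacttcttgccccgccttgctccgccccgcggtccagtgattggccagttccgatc
Adam10 (chr9:70678732-70678981, plus strand): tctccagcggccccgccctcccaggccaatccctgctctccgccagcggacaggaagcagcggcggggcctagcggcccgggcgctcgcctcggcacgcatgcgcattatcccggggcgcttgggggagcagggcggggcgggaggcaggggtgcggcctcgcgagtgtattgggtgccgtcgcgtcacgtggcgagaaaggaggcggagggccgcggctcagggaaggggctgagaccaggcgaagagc
Adam15 (chr3:89350029-89350278, minus strand): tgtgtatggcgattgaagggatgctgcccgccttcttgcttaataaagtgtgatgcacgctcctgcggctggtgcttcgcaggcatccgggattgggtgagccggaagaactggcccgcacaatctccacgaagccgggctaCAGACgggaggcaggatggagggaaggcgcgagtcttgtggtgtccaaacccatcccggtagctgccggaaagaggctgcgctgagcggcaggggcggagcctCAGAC
Adamts1 (chr16:85803114-85803363, minus strand): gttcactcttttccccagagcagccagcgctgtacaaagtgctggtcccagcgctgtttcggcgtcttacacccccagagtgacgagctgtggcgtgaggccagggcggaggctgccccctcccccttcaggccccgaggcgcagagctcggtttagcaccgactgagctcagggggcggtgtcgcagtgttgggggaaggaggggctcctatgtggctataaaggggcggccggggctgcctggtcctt
The promoter table held 8 windows for 6 of the 10 genes, 3 of them for alternative starts of Adam19. The genes without a window were Adam9, Adam12, Adamts4 and Adamts5. CAGAC in either orientation was present in 4 of the 8 windows, namely those of Adam8 and Adam15 with 2 matches each and 2 of the Adam19 windows. Over all 32851 mouse windows of the same length, 42.2% held it. The GC box GGGCGG, searched on both strands, was found in 5 of the 8 windows and in 32.7% of all windows, with 3 matches each in Adam10 and Adamts1. The AP-1 site TGANTCA was found in 1 window, of Adam19, and in 6.75% of all windows. No match of one motif can lie wholly inside a match of another. These matches are letters in a window and not measured sites.

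The arrays came from 1 slide with 1 scan time. Between 55.0% and 59.0% of probes met the background mark on each array, the mark by which Feature Extraction calls a spot well above background, and no spot was saturated. One array stood apart from its group. In distance over all tested genes (Euclidean, on log2 signals), TGF-β1 replicates 1 and 2 lay 32.3 apart and 69.8 to 81.2 from the control arrays. TGF-β1 replicate 3 lay 61.1 and 62.3 from the other two TGF-β1 arrays and 54.4 to 60.9 from the controls. It shared slide row 2 with control replicate 3, while the other 4 arrays were in slide row 1. Results are therefore given with and without it. The marker genes of airway epithelium were present, with 11 of 13 well above background on at least 3 arrays and Muc5ac and Muc5b as the exceptions.

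None of the 7 tested genes was called higher or lower in TGF-β1-treated 2D-MAOs. A call needed a change of at least 2-fold and an adjusted p under 0.05 in limma with Benjamini-Hochberg adjustment over all genes tested. Among all genes, 1.19% were called higher and 0.188% lower. At an unadjusted p under 0.05 in limma 2 of the 7 genes passed, Adam12 and Adamts1, beside 22.2% of all genes tested, and with the t-test named in the methods none did. The fold changes of all 7 were above 0 on the log2 scale, with a median of 0.45, beside a median of −0.03 and 45.8% above 0 among all genes tested. With scaling to the 75th percentile 6 of the 7 were above 0, all but Adam17, and the median was 0.25, beside −0.09 over all genes. Adamts1 was the only one of the 7 whose groups did not overlap, beside 12.9% of all genes that lay higher on every TGF-β1 array and 13.5% that lay lower.

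**Figure D1:**
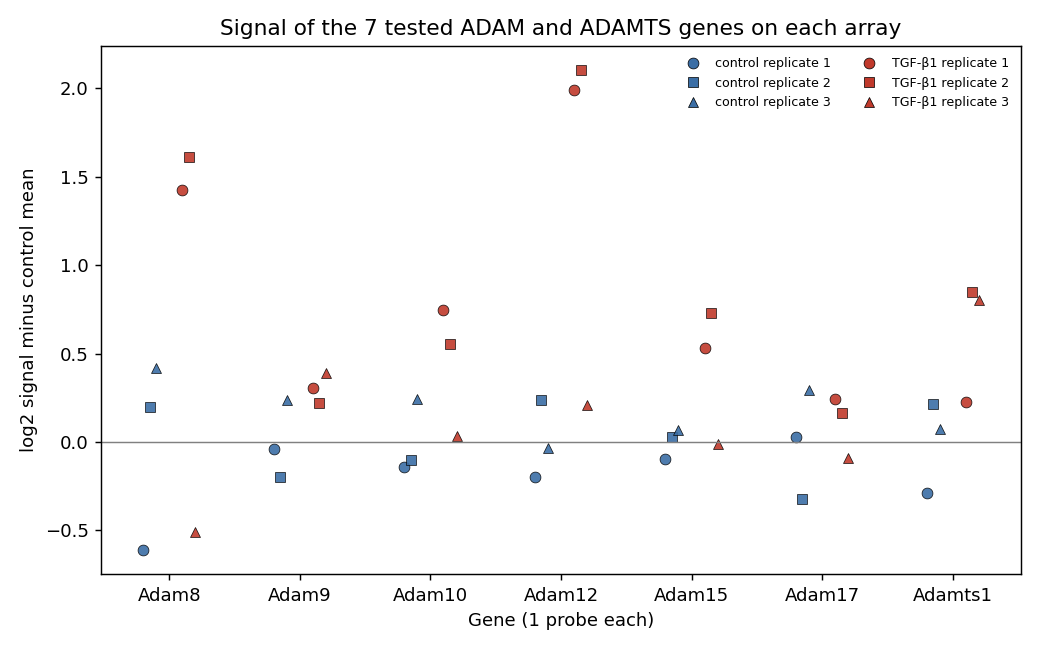
Log2 signal of each array minus the mean of the 3 control arrays (vertical axis) for the 7 tested genes (horizontal axis, 1 probe each), with blue for control and red for TGF-β1 and a triangle for replicate 3 of each group. TGF-β1 replicates 1 and 2 sit above all controls for Adam8, Adam10, Adam12, Adam15 and Adamts1, and replicate 3 does so for Adam9 and Adamts1.

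ADAM10 and ADAM17 are the main sheddases of epithelial cells. The log2 signal of Adam10 was 13.23, 13.26 and 13.61 on control replicates 1 to 3, and 14.11, 13.92 and 13.40 on the TGF-β1 replicates. TGF-β1 replicates 1 and 2 were brighter than every control array, and replicate 3 lay among the controls. The difference of the means was 0.45 ± 0.21 (SE, 3 arrays against 3; 95% interval −0.05 to 0.94, limma adjusted p = 0.263). A second, dimmer probe of Adam10 gave a difference of 0.13, with 1 of the 3 TGF-β1 arrays above all controls. With scaling to the 75th percentile the tested probe differed by 0.25.

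Adam17, also known as TACE, had log2 signals of 11.82, 11.47 and 12.09 in controls and 12.03, 11.95 and 11.70 after TGF-β1. All 3 TGF-β1 arrays lay within the range of the controls. The difference was 0.11 ± 0.18 (SE), with a 95% interval from −0.33 to 0.54 and a limma adjusted p of 0.745. Its second probe differed by 0.02. Adam17 was the member with the smallest difference, and its interval left out a 2-fold change in either direction. Its sign turned under another scaling, where the difference was −0.029.

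Adam8, Adam9, Adam12, Adam15 and Adam19 encode other membrane ADAMs. ADAM8 is best known from leukocytes and tumour cells. The log2 signal of Adam8 was 12.08, 12.89 and 13.11 in controls and 14.12, 14.30 and 12.19 after TGF-β1. TGF-β1 replicates 1 and 2 were at least 1 log2 unit above the brightest control, while replicate 3 was dimmer than 2 of the 3 controls. The difference of the means was 0.84 ± 0.58 (SE), and its 95% interval, −0.53 to 2.22, was the widest of the 7 genes (limma adjusted p = 0.406). The second Adam8 probe showed the same order of arrays in the treated group, with 9.57 and 9.67 on TGF-β1 replicates 1 and 2 and 7.66 on replicate 3, against 8.10, 8.65 and 8.72 in controls. On that probe replicate 3 was dimmer than all 3 controls.

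Adam12 had the largest difference of the 7. Its log2 signal was 4.77, 5.20 and 4.93 in controls and 6.95, 7.07 and 5.18 after TGF-β1. Replicates 1 and 2 stood clear of the controls and replicate 3 lay just under the brightest one. The difference was 1.43 ± 0.49 (SE; 95% interval 0.27 to 2.59), a 2.70-fold change, with a limma adjusted p of 0.169. The probe was dim. The ratio of its spots to their local background was 1.82 to 2.07 on control arrays and 2.11 to 5.50 on TGF-β1 arrays, and with another background correction (normexp) the difference was 0.72. The second Adam12 probe failed the background mark on each control array and met it on 2 of the 3 TGF-β1 arrays. It read 2.72, 3.54 and 3.59 in controls and 5.91, 5.97 and 4.29 after TGF-β1, so that its groups did not overlap. For a bound, each control array was set at no less than its lowest signal among probes well above background. By this bound the probe was 2.66-fold higher in the treated group (measured log2 difference 2.11). The bound is approximate, because the treated mean includes an array that failed the mark. The probe was not entered in the test because it was bright on too few arrays. Its exact permutation p was 0.1, the smallest that 3 against 3 arrays can give.

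Adam9 and Adam15 encode ADAMs that are found on many epithelial cells. The log2 signal of Adam9 was 14.94, 14.78 and 15.22 in controls and 15.28, 15.20 and 15.37 after TGF-β1. Here replicate 3 was the brightest TGF-β1 array, and replicate 2 lay within the controls by a narrow margin. The difference was 0.30 ± 0.14 (SE; 95% interval −0.03 to 0.63, limma adjusted p = 0.256). With scaling to the 75th percentile it was 0.022. The log2 signal of Adam15 was 13.89, 14.01 and 14.05 in controls and 14.52, 14.71 and 13.98 after TGF-β1. Replicates 1 and 2 were above all controls and replicate 3 was among them, and the same held for both further probes of the gene. The difference of Adam15 was 0.42 ± 0.20 (SE; 95% interval −0.05 to 0.88, limma adjusted p = 0.263), and the other probes gave 0.45 and 0.28. With scaling to the 75th percentile Adam15 differed by 0.19.

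**Figure D2:**
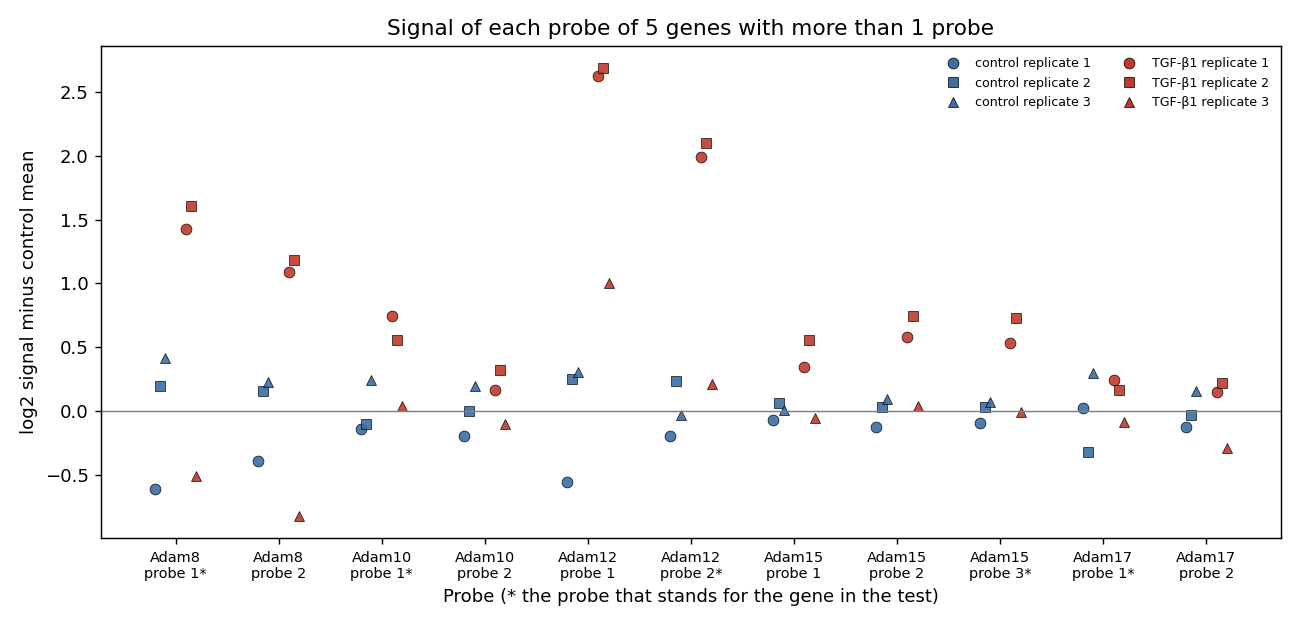
Log2 signal of each array minus the control mean (vertical axis) for every probe of the 5 genes with more than 1 probe and at least 1 probe tested (horizontal axis); colours and shapes as for the plot of signals by array, and a star marks the probe that stood for the gene. Both Adam8 probes and all 3 Adam15 probes show replicates 1 and 2 of TGF-β1 above the controls and replicate 3 not, and the Adam12 probe without a star met the background mark on none of the control arrays.

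Adam19, which is known from heart development and neuregulin processing, met the background mark on none of the 6 arrays. Its log2 signal was 2.06, 1.70 and 1.68 in controls and 2.42, 1.70 and 1.72 after TGF-β1. These values are at the floor of the arrays and carry no order.

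ADAMTS1, ADAMTS4 and ADAMTS5 are secreted proteases that cut versican and aggrecan. The log2 signal of Adamts1 was 9.16, 9.67 and 9.52 in controls and 9.67, 10.30 and 10.25 after TGF-β1. All 3 TGF-β1 arrays were above all controls, although replicate 1 exceeded control replicate 2 by 0.0065 only. With scaling to the 75th percentile in place of quantiles that array fell 0.035 below it, and the groups overlapped. The difference was 0.62 ± 0.21 (SE; 95% interval 0.12 to 1.13), a 1.54-fold change, with a limma adjusted p of 0.170 and an exact permutation p of 0.1. In contrast to Adam8, Adam10, Adam12 and Adam15, the Adamts1 signal on TGF-β1 replicate 3 was close to that on replicate 2.

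Adamts4 met the background mark on no array. It read 1.63, 1.61 and 1.60 in controls and 3.65, 1.59 and 1.61 after TGF-β1, with the single raised value on TGF-β1 replicate 1. The Adamts5 probes were well above background on no control array and on 1 TGF-β1 array each, with log2 signals from 3.18 to 4.12 in controls and from 3.47 to 4.09 after TGF-β1. No fold is given for Adam19, Adamts4 and Adamts5. Across the families the array reached 35 ADAM genes, of which 14 were well above background on all 6 arrays and 19 on none, and 19 ADAMTS genes, of which 6 were so on all 6 and 11 on none.

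The calls of Adam8 and Adam12 changed when TGF-β1 replicate 3 was left out. Replicates 1 and 2 were both above all controls in 5 of the 7 genes, beside 25.2% of all genes tested. In 4 of these 5 genes replicate 3 was not above the controls, beside 48.9% among the genes of the whole array with both other arrays above. Relative to the control mean, Adam12 was 2.05 higher on the log2 scale on the mean of replicates 1 and 2 and 0.21 higher on replicate 3. Adam8 was 1.52 higher on the mean of replicates 1 and 2 and at −0.51 on replicate 3. For Adamts1 the same values were 0.53 and 0.80, and for Adam9 they were 0.26 and 0.39.

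Without TGF-β1 replicate 3, Adam12 and Adam8 were called higher. Adam12 was then 4.12-fold higher (log2 difference 2.04, 95% interval 1.66 to 2.42, limma adjusted p = 0.00334) and Adam8 2.87-fold higher (1.52, 0.77 to 2.27, limma adjusted p = 0.0293). Adam10 and Adam15 passed the adjusted threshold at changes under 2-fold, with log2 differences of 0.65 (limma adjusted p = 0.0442) and 0.63 (limma adjusted p = 0.0261). Adam9, Adam17 and Adamts1 did not pass, with adjusted p of 0.272, 0.484 and 0.163 in limma. Among all genes, 3.83% were then called higher and 1.09% lower, more than on all 6 arrays. At any size, 4 of the 7 genes passed the adjusted threshold in the higher direction, beside 9.07% of all genes. The median of the 7 was 0.63, beside −0.04 over all genes. In this comparison the treated group had 2 arrays. The slide rows gave the same split, since row 2 held replicate 3 of each group. Within row 1, with 2 arrays a group, Adam12 differed by 2.03 (limma adjusted p = 0.00948) and Adam8 by 1.73 (limma adjusted p = 0.0221). Within row 2, with 1 array a group and no test, they differed by 0.25 and −0.92, and 3 of the 7 genes were above 0. With the row as a block in limma neither was called.

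**Figure D3:**
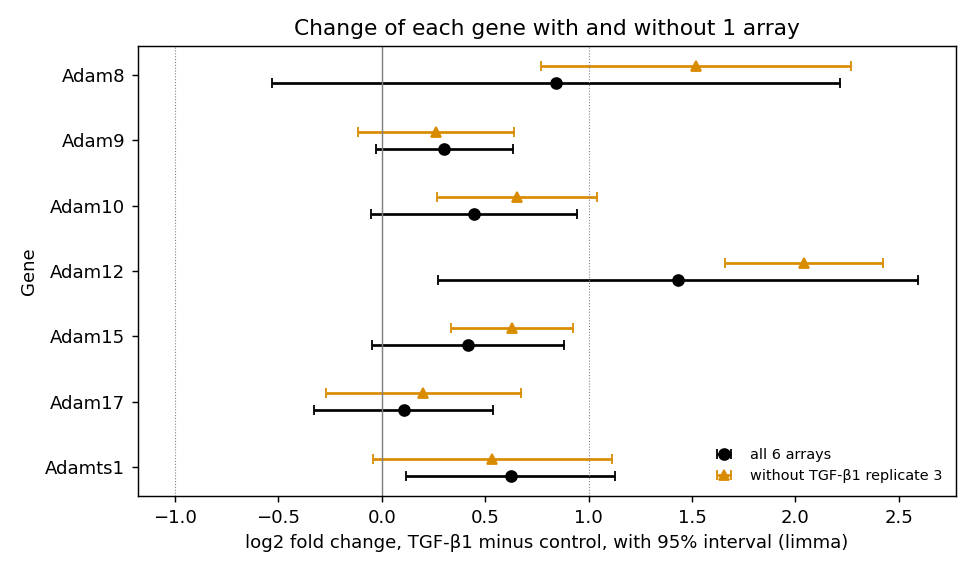
Log2 fold change of TGF-β1 over control (horizontal axis, points) with its 95% interval from limma (bars) for the 7 tested genes, from all 6 arrays (black circles) and without TGF-β1 replicate 3 (orange triangles); dotted lines mark 2-fold. The intervals of Adam12 and Adam8 are the widest over all 6 arrays and lie above 0 without replicate 3.

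The values of other cell types are given because ADAM12 is known from mesenchymal cells and ADAM8 from leukocytes, and because more cells of a type and more RNA per cell cannot be told apart in bulk RNA. Of 12 fibroblast markers 5 were well above background on at least 3 arrays. The summed signal of all 12 on the linear scale was 588 to 663 in controls and 2722, 1222 and 720 on TGF-β1 replicates 1, 2 and 3. It was thus highest on the 2 arrays with the highest Adam12 signal, although the order of those 2 differed. Dcn, at 11.10, 9.68 and 8.98 on TGF-β1 replicates 1 to 3, was the brightest of the 5 on each of these arrays. Dcn, Thy1 and Col1a1 were lowest on replicate 3 among the TGF-β1 arrays. Col1a2, at 4.89, 5.48 and 5.38, and Pdgfra, at 7.00, 6.43 and 6.63, were not. Pdgfra differed by 0.21 (limma adjusted p = 0.484). Col1a1 and Col1a2, the chains of type I collagen, were called higher in this list. Both met the background mark on no control array and on all 3 TGF-β1 arrays, so they entered the test only through the treated group. The median of the 5 was 2.07, and 1.25 with these 2 genes at their bounds. Thy1 read 8.19, 7.65 and 4.60 after TGF-β1 against 4.14 to 4.67 in controls, with a log2 difference of 2.47 and a limma adjusted p of 0.176, and Dcn, decorin, differed by 1.00 (limma adjusted p = 0.273). Without TGF-β1 replicate 3 Thy1 was called higher, like Adam12, at 3.57 (limma adjusted p = 0.00212), and Dcn differed by 1.47 (limma adjusted p = 0.0545). Pdgfrb, Col3a1, Lum, Tcf21, Fgf10, Pi16 and Dpt met the background mark on fewer than 3 arrays.

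Of 10 leukocyte markers 5 were measured. The summed signal of all 10 was 10604 to 12314 in controls and 13594 to 14776 after TGF-β1. The sum was highest on TGF-β1 replicate 3, on which Adam8 was lowest in its group. Its measured genes did not share this order. Among the TGF-β1 arrays Csf1r, at 12.33, 11.99 and 12.71 on replicates 1 to 3, and Cd3e were highest on replicate 3. Cd68, at 11.59, 12.19 and 11.57, Itgam and Marco were lowest there. The defining leukocyte genes Ptprc, Adgre1, Itgax and Lyz2 met it on fewer than 3 arrays, none of the list was called, and its median was 0.01. The macrophage gene Cd68 and the integrin gene Itgam were above all controls on every TGF-β1 array, with differences of 0.90 (limma adjusted p = 0.147) and 0.43 (limma adjusted p = 0.134). Of 8 endothelial markers 2 were measured, with a median of 0.30 and no call. The summed signal of all 8 was 749 to 832 in controls and 833 to 1308 after TGF-β1. The epithelial sum, over all 13 listed genes, was 212444 to 229017 in controls and 226550 to 312950 after TGF-β1. Of the 11 epithelial markers tested Foxj1, a factor of ciliated cells, was called higher (log2 difference 1.47, limma adjusted p = 0.00238), and the median was 0.28. Scgb1a1, the club cell secretory protein, had the largest difference of the list, −2.27 (limma adjusted p = 0.158), with all 3 TGF-β1 arrays below all controls, and was called lower without control replicate 3 (−3.17, limma adjusted p = 0.0208). Krt5, a keratin of basal cells, differed by 1.37 and Scgb3a2, another club cell product, by 1.05, and without TGF-β1 replicate 3 both were called higher, as were Foxj1 and Epcam. The part of other cells in the ADAM values was not tested.

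The other members of both families were not called. Of 27 further ADAM genes 8 were tested, with 4 higher and 4 lower and a median log2 difference of 0.01. The largest differences were those of Adamdec1 at 0.76, Adam33 at −0.47, Adam1a at 0.34 and Adam28 at 0.20. Adamdec1, which encodes a secreted relative of the ADAMs, passed the adjusted threshold under 2-fold (limma adjusted p = 0.0322), with 9.66, 9.96 and 9.80 in controls and 10.59, 10.65 and 10.48 after TGF-β1. Its 3 TGF-β1 arrays agreed closely and replicate 3 did not stand apart. Its adjusted p in limma reached 0.155 with an array left out.

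Of 16 further ADAMTS genes 5 were tested, with 2 higher and 3 lower and a median of −0.02. Adamts16 showed the same pattern as Adam12 at a larger size. It read 5.02, 7.01 and 5.77 in controls and 10.54, 10.50 and 6.49 after TGF-β1, with replicate 3 within the range of the controls. The log2 difference was 3.24 ± 1.12 (SE, limma adjusted p = 0.173) on all arrays and 4.57 without replicate 3 (limma adjusted p = 0.00834). Adamts7, whose product cuts cartilage and vessel wall proteins, read 8.04, 8.34 and 8.94 in controls and 10.24, 10.55 and 9.39 after TGF-β1, a difference of 1.62 (limma adjusted p = 0.0752). It was called without replicate 3 at 1.95 (limma adjusted p = 0.0129). Adamts15 and Adamts17 lay lower on all 3 TGF-β1 arrays, at −1.05 and −0.76, both with a limma adjusted p of 0.0979. Of the 7 ADAMTS-like genes, which lack the protease domain, 5 were tested and none was called, with a median of −0.10 and the largest differences in Adamtsl1 at −0.52, Papln at 0.51, Adamtsl5 at 0.33 and Thsd4 at −0.25. The Adamtsl1 value rested on TGF-β1 replicate 3, at −1.44 from the control mean on the log2 scale, and was −0.067 without it.

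Genes that activate, carry or remove these proteases were mostly on the higher side. Of 15 such partners 14 were tested. The median log2 difference was 0.26, with 12 genes above 0 and 2 below. Lrp1, an endocytic receptor that clears ADAMTS proteases, was called higher, at 9.61, 9.52 and 10.18 in controls and 11.48, 11.55 and 10.90 after TGF-β1 (log2 difference 1.54, limma adjusted p = 0.0315). It stayed called in 2 of the 6 comparisons that left out an array, and its adjusted p in limma reached 0.142 in the others. Furin, the convertase that removes ADAM prodomains, passed the adjusted threshold under 2-fold, with 13.36, 13.39 and 13.80 in controls and 14.31, 14.43 and 14.27 after TGF-β1 (0.82, limma adjusted p = 0.0475, and up to 0.178 with an array left out). Pcsk6, a related convertase, was 0.70 higher (limma adjusted p = 0.0572). Fbln1, a cofactor of ADAMTS1, differed by 1.38 (limma adjusted p = 0.258), with 10.72 and 9.81 on TGF-β1 replicates 1 and 2 and 8.10 on replicate 3 against 7.65 to 8.69 in controls. Without replicate 3 it was called higher, at 2.10 (limma adjusted p = 0.0228).

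Of the 5 inhibitors, the TIMPs and Reck, 4 were tested. All 4 differences were above 0, none was called, and the median was 0.49. Timp1 read 8.95, 9.42 and 9.57 in controls and 11.79, 11.84 and 10.42 after TGF-β1, a difference of 2.04 with a limma adjusted p of 0.0597. Timp3, the TIMP that inhibits ADAM17 and the ADAMTS aggrecanases, differed by 0.16, Timp2 by 0.13 and Reck by 0.81. Without TGF-β1 replicate 3 Timp1 was called, at 2.50 (limma adjusted p = 0.00349).

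Of 25 proteins listed as shed or otherwise cut by ADAMs 24 had a tested gene, 16 higher and 8 lower, with a median of 0.29 and no call. The largest differences were those of Areg at 1.26 and Hbegf at 0.65, ligands of the EGF receptor released by ADAM17, Cd44 at 0.92, a hyaluronan receptor, and Igfbp5 at −1.11, a binding protein of insulin-like growth factors. Areg read 5.97 to 6.70 in controls and 6.89 to 8.08 after TGF-β1, lowest there on replicate 3 (limma adjusted p = 0.127). Areg and Cd44 were called without replicate 3, at 1.64 (limma adjusted p = 0.0125) and 1.36 (limma adjusted p = 0.0157).

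Of 12 matrix proteins, listed as substrates of these proteases, 6 had a tested gene, and 3 were called higher. Fn1, fibronectin, read 13.88, 14.24 and 14.83 in controls and 16.84, 16.89 and 15.90 after TGF-β1 (log2 difference 2.22, limma adjusted p = 0.0279). Col1a1 and Col1a2 met the background mark on no control array and on all 3 TGF-β1 arrays. They therefore entered the test only through the group in which they were high. By their bounds they were 2.59-fold and 2.38-fold higher (limma adjusted p = 0.0091 and 0.0162 on measured values). Of the 6 comparisons that left out an array, Fn1 was called in 2 (limma adjusted p up to 0.120), Col1a1 in 5 (up to 0.0514) and Col1a2 in 3 (up to 0.0769). Col4a1 entered the test in the same way as these collagens, was 2.17-fold higher by its bound and was not called (limma adjusted p = 0.111). The median of the list was 2.10 on measured values and 1.18 with the 3 collagens at their bounds. Of the classical ADAMTS substrates, Vcan, versican, differed by −0.08 (limma adjusted p = 0.738) and Acan, aggrecan, met the background mark on no array.

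**Figure D4:**
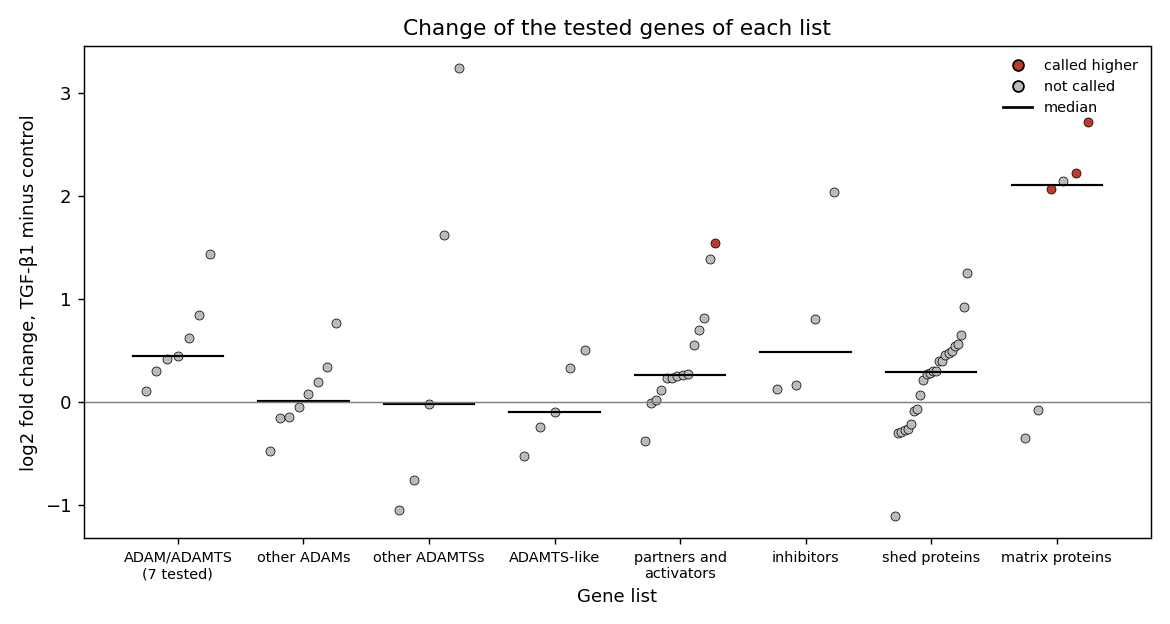
Log2 fold change of TGF-β1 over control (vertical axis) for every tested gene of the 10 ADAM and ADAMTS genes and of 7 related lists (horizontal axis), with red for genes called higher, grey for genes not called and a bar at the median of each list. The 7 tested ADAM and ADAMTS genes all lie above 0 without a call, and calls appear among the partners (Lrp1) and the matrix proteins (Fn1, Col1a1 and Col1a2).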

How the data were processed

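The authors deposited, for each of 6 arrays, the intensity of every spot on a linear scale, background-subtracted by Agilent Feature Extraction 11.0.1.1 and not normalised between arrays. The deposited files also mark spots well above background. Control spots and spots marked as uneven or outlying were left out, spots of a probe were averaged, and log2 intensities were quantile-normalised, as in the study's methods. Of 35883 probes with a RefSeq accession, 32991 were given a symbol through RefSeq transcripts of GRCm38.p6. The array was annotated on an older assembly, so no probe positions are given. The positions of the promoter windows are those of RefSeq on GRCm38.p6. A probe was kept when marked on at least 3 of 6 arrays (32460 probes), and the kept probe with the highest mean represented a gene. Groups were compared in R 4.3.3 with limma 3.58.1 and no covariate, and single genes also by a two-sided exact permutation test. The code was tested on simulated data. A bound sets the bright group's mean against the dim group's mean of, per array, the higher of the lowest signal among probes well above background and the dim probe's own. Single probes above that lowest signal can fail the mark, so a bound is approximate. The number of arrays limits the precision.

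All 10 genes are described with every probe. Of the other lists the text names called genes and up to 4 with the largest differences. The genes and lists were chosen with earlier results of these data known. Other settings tried were normexp with an offset of 50 (on median spot brightness, since the files hold no mean), 75th-percentile scaling, other filters on dim probes, the mean of a gene's probes, the methods' t-test, other limma settings, blocks for replicate number and slide row, each array left out and, added after seeing the data, a fit to single probes.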

Additional observations from a re-analysis of the deposited data

How the results depend on the processing

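The number of the 7 tested genes called higher was 0 on all arrays and ranged from 0 to 2 when each array was left out in turn, the 2 being Adam8 and Adam12 without TGF-β1 replicate 3. It was 1 (Adam12) in limma with the 2-fold threshold and unadjusted p, 2 (Adam8 and Adam12) with array weights and 2 (the same genes) within slide row 1, and 0 under the other alternatives. No gene of the 7 was called lower under any of these settings. Slide row 2 holds 1 array of each group and gives no test. Within it the log2 differences were −0.92 for Adam8, −0.21 for Adam10, −0.077 for Adam15 and −0.38 for Adam17. They were 0.25 for Adam12, 0.15 for Adam9 and 0.73 for Adamts1. Adam17 turned to −0.029 with scaling to the 75th percentile, and ranged from −0.056 to 0.25 with each array left out. Over the other settings 133 log2 differences of the 7 genes were counted as unchanged, 7 newly passed the threshold, 6 turned sign and 1 moved otherwise. In several settings, such as the t-test, the other filters and the blocks, the log2 difference itself equalled the main one. Its direction could not turn there. Within slide row 2, which has no test, unchanged meant the same sign and a shift smaller than the standard deviation within groups. Fitted to single probes, none of 12 probes was called. Replicate numbers were shared by the groups. Same-numbered arrays deviated together in replicate 2 only (correlations −0.01, 0.33 and −0.05 for replicates 1 to 3). With the replicate block 0 of the 7 genes were called. Adam12 had a limma adjusted p of 0.182 and Adamts1 one of 0.101. All genes called fell from 171 higher and 27 lower to 86 and 18. Over all genes the calls were 49 higher and 11 lower without the filter on dim probes, 385 and 108 unadjusted, 312 and 76 with the methods' t-test and 4 and 1 after its adjustment, 594 and 213 with array weights, 627 and 234 within slide row 1, 192 and 45 with slide row as a block, and 48 to 550 higher and 7 to 156 lower with each array left out. The cause of these shifts was not tested. Without the filter on dim probes Adam19, Adamts4 and Adamts5 entered the test and were not called.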
